A study of Mus musculus with 18 samples.

Results

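The comparison covers naive CD8+ T cells, the resting precursors of cytotoxic T cells, from GRP75 conditional knockout mice and from wild-type mice. GRP75 is a chaperone of the mitochondrial matrix encoded by Hspa9. Poly-A selected RNA was sequenced from 3 libraries labelled GRP75 cKO and 3 labelled WT, which are 6 of the 18 libraries of the study. The other 12 libraries hold effector and memory cells that were grown in culture from naive cells of both genotypes. Naive cells of both genotypes were taken untreated from the lymph nodes and spleens of 8-week-old mice. The labels name neither the Cre driver nor the deleted exons, and they do not say whether the replicates of a genotype were separate mice. If they were not, the p-values below measure only the spread between these samples, which may be technical. "cKO" below is the label of a library.

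GRP75 is an HSP70-type chaperone. It pulls proteins through the inner mitochondrial membrane, folds them in the matrix, takes part in iron-sulfur cluster assembly and sits at contacts between mitochondria and the endoplasmic reticulum. When mitochondrial protein handling or respiration fails in mammalian cells, the signal commonly reaches the cytosol through the integrated stress response: a kinase phosphorylates the initiation factor eIF2, general translation drops, and the transcription factor ATF4 switches on genes that make, import and charge amino acids. Naive T cells normally rest outside the cell cycle, with low biosynthesis.

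Values are the authors' deposited read counts after division by a size factor for each library, called normalised reads. The libraries held between 15473340 and 18049774 reads assigned to genes. Genes of the X and Y chromosomes were left out of the tests. Fold changes are cKO minus WT on the scale log2(normalised reads + 1), which understates the change of genes with few reads. A gene is called at a Benjamini-Hochberg adjusted p under 0.05 in limma, and "rose" or "fell" is used only of called genes.

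The targeted gene checked the labels first. Hspa9 (ENSMUSG00000024359, chromosome 18, 35070467 to 35087410, GRCm39) had 6448, 6718 and 6149 normalised reads in cKO libraries, against 4095, 3789 and 4093 in WT libraries. The lowest cKO library exceeded the highest WT library, and the means differed 1.61-fold (log2 fold change 0.69, SE 0.06, limma adjusted p = 1.3e-05). By an exact permutation test of the libraries, two-sided, p was 0.1, which is the smallest value for 3 against 3. The transcript of the targeted gene was thus higher, not lower, under the label cKO. Gene totals carry no record of the exons that were read.

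The groups also differed in sex-linked genes. The 4 Y-linked genes Ddx3y, Eif2s3y, Kdm5d and Uty together held 7614, 6833 and 5885 reads in the cKO libraries, against 0 in each WT library. Xist, which coats the silenced X chromosome, had 298, 293 and 265 CPM (counts scaled to the same total in every library) in cKO libraries, against 1004, 869.96 and 1044 CPM in WT libraries. Genotype and sex of the source mice can therefore not be told apart in any naive result below. Each cKO library held both Y-linked reads and Xist, and whether it mixed cells of both sexes was not tested. The 4 Y-linked genes are not listed in the effector and memory tables. Xist had 772 to 801 CPM in effector cKO libraries, against 857 to 932 CPM in effector WT libraries, and 643 to 1089 CPM in memory cKO libraries, against 796 to 1067 CPM in memory WT libraries. The cultured cells thus lacked a split of the naive size in Xist.

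CD8 T cell markers were high in every library. Cd8a, a chain of the CD8 coreceptor, had 21689, 21385 and 21455 normalised reads in cKO libraries, against 25313, 25003 and 24797 in WT libraries. The CD4 T cell marker Cd4 stayed at or below 65.4 normalised reads in each library. Of the 4 CD4 T cell markers tested 3 rose, and their summed CPM are given below. The naive-cell genes Ccr7, Tcf7 and Lef1 were read in each library and are given with their groups below.

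Of 13445 genes tested, 3356 were called, 25.0% of them: 1744 rose (13.0%) and 1612 fell (12.0%). In bulk RNA, less of a transcript per cell and fewer cells that carry it cannot be told apart. Large changes were mostly rises. At least 2-fold changes were made by 690 risen genes (5.13%) and 173 fallen genes (1.29%), and at least 4-fold changes by 248 and 28. The 3 libraries of each group did not overlap for 5352 genes (39.8%), a share to hold beside any statement below that groups did not overlap. The first principal component held 64.1% of the variance and separated the genotypes. The total called was 2200 without cKO replicate 1 and 2192 without cKO replicate 2, and the falls numbered 1069 without WT replicate 1, 1002 without cKO replicate 1 and 1017 without cKO replicate 2. Scaling to library totals moved the median gene by 0.12 on the log2 scale and gave 2784 rises and 794 falls, so that rises made up 77.8% of the calls, against 52.0% with the deposited scaling. The shares of 13.0% and 12.0% are the background for the counts of each gene list below.

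**Figure D1:**
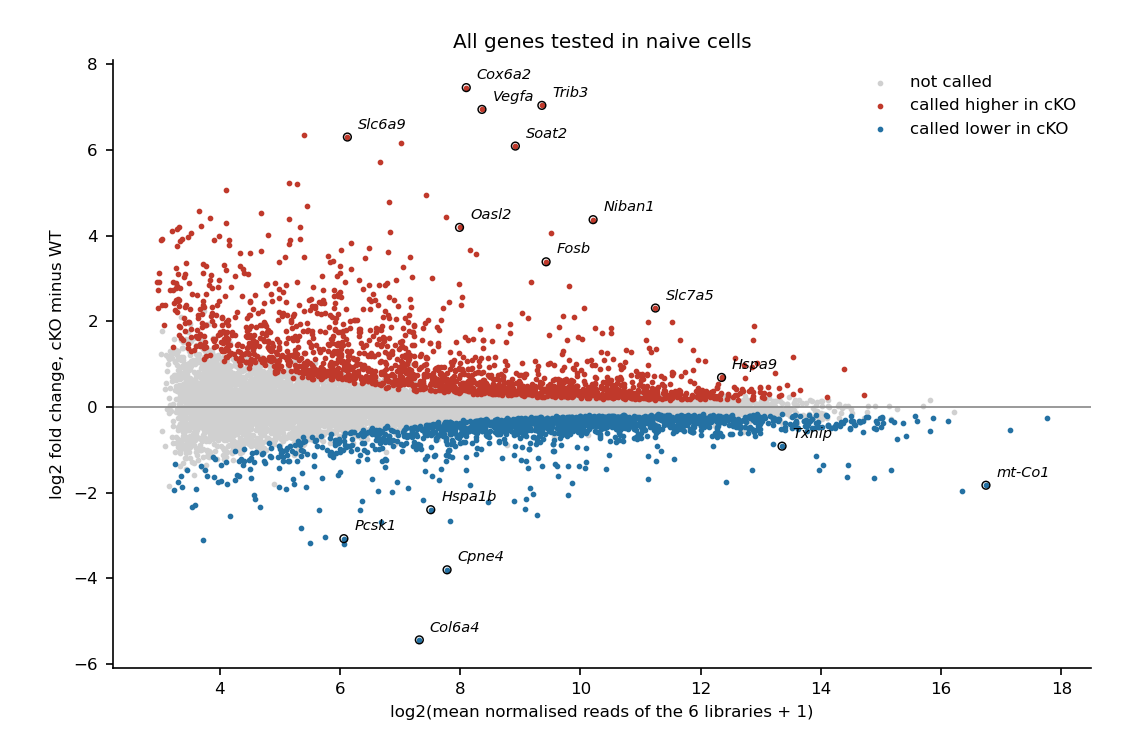
Log2 fold change (cKO minus WT, y axis) against the log2 mean of normalised reads over the 6 naive libraries (x axis) for the 13445 genes tested, with 1744 genes called higher in red and 1612 called lower in blue. The largest rises, such as Cox6a2 at 7.46, exceed the largest falls, such as Col6a4 at -5.44.

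The largest rise was that of Cox6a2 (ENSMUSG00000030785, chromosome 7, 127804607 to 127805559), the heart and skeletal muscle isoform of a subunit of cytochrome c oxidase. It had 599, 518 and 519 normalised reads in cKO libraries, against 2.11, 2.02 and 2.18 in WT libraries (log2 fold change 7.46, SE 0.22, limma adjusted p = 4.5e-09). The WT libraries held next to none of this transcript. Vegfa (ENSMUSG00000023951, chromosome 17, 46327919 to 46343295), the vascular endothelial growth factor, had 586, 608 and 762 normalised reads in cKO libraries, against 3.16, 3.03 and 7.63 in WT libraries (log2 fold change 6.95, SE 0.29, limma adjusted p = 3e-08). Soat2, an enzyme that esterifies cholesterol (ENSMUSG00000023045, chromosome 15, 102058961 to 102071904), had 965, 960.4 and 932 normalised reads in cKO libraries, against 11.6, 10.1 and 18.5 in WT libraries (log2 fold change 6.09, SE 0.20, limma adjusted p = 7.1e-09). In all 3 genes the cKO libraries stood far above every WT library, as the plot of 15 genes by library shows for Cox6a2. The other 7 genes among the 10 largest rises were Trib3, Slc6a9, Asns, Slc1a4, Gpt2, Niban1 and Oasl2, which are described with their groups.

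**Figure D2:**
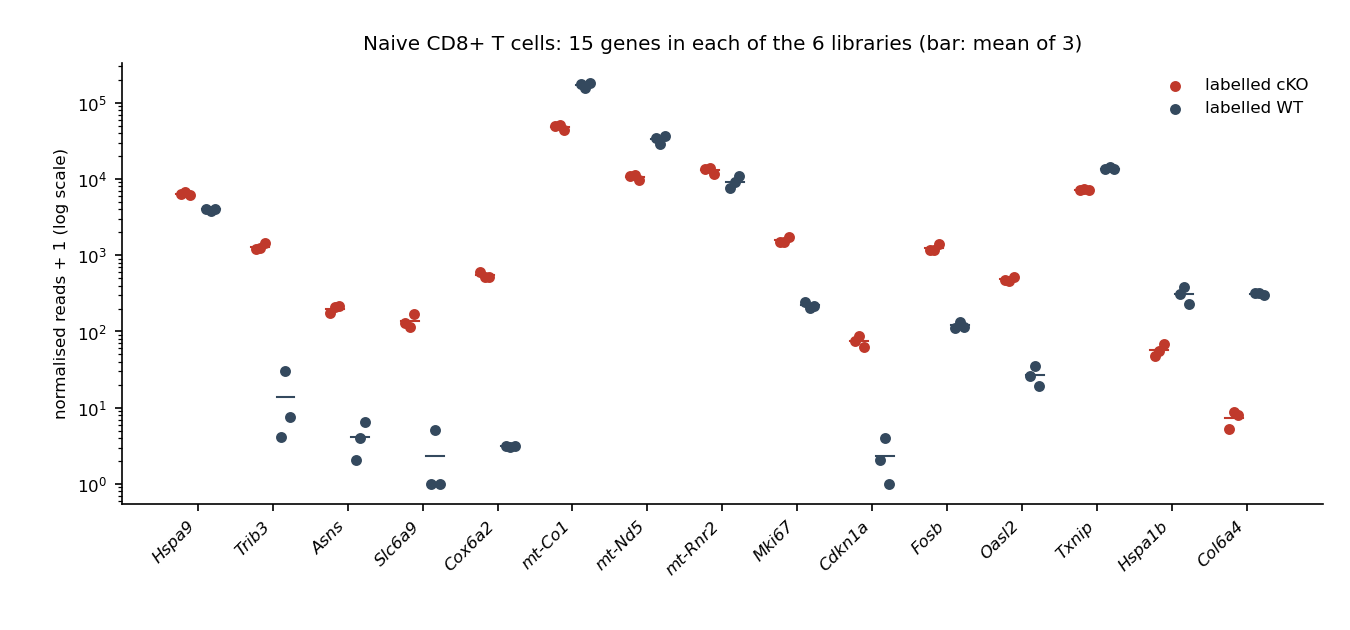
Normalised reads + 1 (log axis) of 15 genes in each of the 6 naive libraries, with cKO libraries in red to the left of WT libraries in dark blue and a bar at the mean of 3. Trib3, Asns, Slc6a9, Cox6a2 and Cdkn1a are nearly absent from the WT libraries, while mt-Co1, Txnip, Hspa1b and Col6a4 are lower in the cKO libraries.

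Falls of this size were few. Col6a4, a collagen VI chain (ENSMUSG00000032572, chromosome 9, 105866653 to 105973982), had 4.30, 7.78 and 7.03 normalised reads in cKO libraries, against 314, 316 and 304 in WT libraries (log2 fold change -5.44, SE 0.24, limma adjusted p = 4.3e-08). Cpne4, a calcium-dependent phospholipid-binding copine, had 27.5, 36.0 and 23.1 normalised reads in cKO libraries, against 391, 409 and 428 in WT libraries. Pcsk1, a protease that processes prohormones, had 13.8, 12.6 and 13.0 normalised reads in cKO libraries, against 103, 133 and 119.9 in WT libraries (log2 fold change -3.08, SE 0.22, limma adjusted p = 2.1e-06). These 3 genes are near-silent in the cKO libraries and moderately read in every WT library. Tbc1d30 (-2.19), the glutamate receptor gene Grm6 (-1.98) and Phf21b (-1.97) fell as well, and the remaining 4 of the 10 largest falls were mt-Co2, mt-Co3, mt-Atp6 and Hspa1b.

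In the integrated stress response, transcription factors and targets rose, and no sensor was called. Of 24 members tested, 14 rose and 1 fell, with a median log2 fold change of 1.00 against -0.01 over all genes tested. None of the 7 eIF2 kinases and mitochondrial relay genes was called. Eif2ak1, the kinase HRI, had 857, 912 and 1046 normalised reads in cKO libraries, against 952, 1075 and 1111 in WT libraries, and Oma1, the inner-membrane protease that relays mitochondrial stress to HRI, had 335, 319 and 313 normalised reads in cKO libraries, against 377, 301 and 326 in WT libraries, with overlapping groups in both. All 7 transcription factors rose. Atf4 had 4452, 4387 and 4775 normalised reads in cKO libraries, against 3032, 3204 and 2966 in WT libraries (log2 fold change 0.56, SE 0.06, limma adjusted p = 6e-05), a modest rise in a transcript that is controlled largely at translation. Atf5, a related factor that can enter mitochondria, had 1368, 1278 and 1489 normalised reads in cKO libraries, against 70.6, 98.9 and 76.3 in WT libraries (log2 fold change 4.07, SE 0.13, limma adjusted p = 6.7e-09). Ddit3, which encodes CHOP, had 1222, 1264 and 1272 normalised reads in cKO libraries, against 354, 327 and 344 in WT libraries, and Cebpg, a dimer partner of ATF4, had 2303, 2319 and 2128 normalised reads in cKO libraries, against 673, 639.9 and 717 in WT libraries. Both rose with non-overlapping groups (log2 fold changes 1.87, SE 0.08 and 1.73, SE 0.07). Nupr1, a stress-induced chromatin protein, had 56 reads over the 3 cKO libraries, against 0 reads in WT, at least 16.7-fold higher when 3 reads are set against the WT group as a whole. The spread between factors was wide, since Atf5 rose by 4.07 and Atf4 by 0.56.

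Among the genes that restrain or follow this response, 7 of 10 rose. Trib3, a pseudokinase that dampens ATF4 and CHOP (ENSMUSG00000032715, chromosome 2, 152179342 to 152185952), had 1219, 1229 and 1448 normalised reads in cKO libraries, against 3.16, 29.3 and 6.54 in WT libraries (log2 fold change 7.04, SE 0.52, limma adjusted p = 2.8e-06). WT replicate 2 held most of the WT reads, and the groups stayed far apart. Niban1, a stress-induced regulator of translation, had 2202, 2264 and 2318 normalised reads in cKO libraries, against 94.9, 112 and 119 in WT libraries (log2 fold change 4.37, SE 0.10, limma adjusted p = 4.9e-10). Sesn2, which restrains mTORC1 when leucine is short, had 254, 230.4 and 327 normalised reads in cKO libraries, against 69.6, 64.6 and 69.8 in WT libraries, and Xpot, a nuclear export receptor for tRNAs, had 3268, 3196 and 3314 normalised reads in cKO libraries, against 1139, 1069 and 1114 in WT libraries. Sesn2 rose by 1.96 (SE 0.16) and Xpot by 1.56 (SE 0.06). Chac1, which degrades glutathione, had 52 reads over the 3 cKO libraries, against 0 reads in WT, at least 15.5-fold higher by the same floor. The bounds of Nupr1 and Chac1 cover counting error only, and the median of the list is 1.00 also with both genes at their bounds. The 1 fall was that of Ddit4, an inhibitor of mTORC1 (log2 fold change -0.56, SE 0.11). Ppp1r15a, the GADD34 subunit that dephosphorylates eIF2, rose by 0.47 (SE 0.11). Fgf21 and Gdf15, hormones that mitochondrial stress induces in other tissues, could not be tested.

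Genes that make, import and charge amino acids rose in each of the lists that hold them, the mitochondrial tRNA synthetases excepted. In serine and one-carbon synthesis 6 of 14 rose and 0 fell, with a median of 0.33. Phgdh, the first enzyme of serine synthesis, had 2674, 2385 and 2655 normalised reads in cKO libraries, against 1548, 1838 and 1521 in WT libraries, and Psat1, the second, had 936, 953 and 937 normalised reads in cKO libraries, against 485, 419 and 507 in WT libraries. Shmt2 and Mthfd2, which carry the serine carbon into mitochondrial folates, rose by 1.33 (SE 0.08) and 1.56 (SE 0.07). Among 13 other synthesis enzymes 6 rose and 1 fell, and the fall was lost without WT replicate 1 or 3 or cKO replicate 1 or 2 and when scaled to library totals. Asns, asparagine synthetase (ENSMUSG00000029752, chromosome 6, 7675169 to 7693254), had 172, 208 and 215 normalised reads in cKO libraries, against 1.05, 3.03 and 5.45 in WT libraries (log2 fold change 5.72, SE 0.38, limma adjusted p = 1.1e-06). Gpt2, the mitochondrial alanine aminotransferase, had 215, 223 and 211 normalised reads in cKO libraries, against 11.6, 4.04 and 6.54 in WT libraries (log2 fold change 4.79, SE 0.31, limma adjusted p = 8.7e-07), and Pycr1, the last step to proline, had 66.3, 44.7 and 44.2 normalised reads in cKO libraries, against 1.05, 4.04 and 2.18 in WT libraries. The Asns, Gpt2 and Pycr1 libraries of the 2 genotypes did not overlap.

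Of 16 amino acid transporters tested, 10 rose and 0 fell (median 0.38). Slc7a5, the light chain of the large neutral amino acid exchanger, had 4034, 3795 and 4315 normalised reads in cKO libraries, against 769.6, 894 and 785 in WT libraries (log2 fold change 2.31, SE 0.08, limma adjusted p = 7.2e-09). Its heavy chain partner Slc3a2 rose less, by 0.81 (SE 0.06). Slc1a4, an exchanger of small neutral amino acids, had 336, 304 and 355 normalised reads in cKO libraries, against 6.33, 16.1 and 8.72 in WT libraries (log2 fold change 4.96, SE 0.28, limma adjusted p = 3.4e-07), and Slc6a9, a glycine transporter, had 129, 113 and 167 normalised reads in cKO libraries, against 0, 4.04 and 0 in WT libraries (log2 fold change 6.30, SE 0.57, limma adjusted p = 1.4e-05). Slc6a9 had 0 reads in 2 of the 3 WT libraries. Slc38a2, an importer of glutamine and other neutral amino acids, rose by 1.03 (SE 0.07) and the arginine importer Slc7a1 by 1.35 (SE 0.07).

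The enzymes that charge tRNAs were counted by compartment, and the difference between compartments was not tested. Of 20 cytosolic aminoacyl-tRNA synthetases 13 rose and 3 fell, with a median of 0.74, while of 17 mitochondrial ones 0 rose and 4 fell, with a median of -0.02 that turns to 0.10 when scaled to library totals. That scaling left 0 falls in the cytosolic list, and gave 1 rise and 1 fall in the mitochondrial one. Aars, the cytosolic enzyme for alanine, had 3352, 3466 and 3841 normalised reads in cKO libraries, against 841, 977 and 863 in WT libraries (log2 fold change 1.99, SE 0.08, limma adjusted p = 2.4e-08), and Cars, for cysteine, had 1850.3, 1837 and 1996 normalised reads in cKO libraries, against 559, 556 and 475 in WT libraries. Eprs and Iars rose by 1.08 (SE 0.05) and 1.29 (SE 0.06). The 3 falls in the cytosolic list were small, up to -0.32, and 0 of them were called without cKO replicate 1, 1 without WT replicate 2 and 1 without cKO replicate 2. Lars2, the mitochondrial leucine enzyme, had 4044, 4264 and 2573 normalised reads in cKO libraries, against 5300.0, 9872 and 18442 in WT libraries (log2 fold change -1.48, SE 0.34, limma adjusted p = 0.0087). The groups did not overlap, but WT spanned more than 3-fold. The falls in the mitochondrial list numbered 2 without WT replicate 3, 2 without cKO replicate 1 and 1 without cKO replicate 2.

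The promoters of the risen ATF4-type genes were read for the C/EBP-ATF response element, the composite site that ATF4 binds, since these genes moved together. RefSeq windows on build GRCm38.p6 from 250 bases before to 50 after the gene start were matched by symbol for 9009 of the genes tested. The letters TGATGNAA, on either strand, were found in 2.85% of these windows, in 4.09% of those of risen genes and in 1.94% of those of fallen genes. They were found in 4 of 13 risen members of the stress response with a window, 3 of 6 risen enzymes of other amino acid synthesis, 5 of 8 risen cytosolic tRNA synthetases and 1 of 8 risen transporters. None of the 11 one-carbon genes and none of the 14 mitochondrial tRNA synthetases with a window held them. The lines below show 60 bases that lie before the gene start and hold the match, 5′ to 3′ on the gene's strand, for the 6 of these genes with the largest fold change whose whole match lies before the start, with the matched letters in capitals.
Asns, chr6:7693210-7693269, minus strand: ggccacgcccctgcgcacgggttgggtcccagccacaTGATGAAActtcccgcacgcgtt
Nupr1, chr7:126625547-126625606, minus strand: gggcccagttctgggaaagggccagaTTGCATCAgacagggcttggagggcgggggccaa
Chac1, chr2:119351023-119351082, plus strand: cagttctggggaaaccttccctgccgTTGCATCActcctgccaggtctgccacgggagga
Pycr1, chr11:120643818-120643877, minus strand: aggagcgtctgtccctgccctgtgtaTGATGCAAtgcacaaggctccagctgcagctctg
Atf3, chr1:191183410-191183469, minus strand: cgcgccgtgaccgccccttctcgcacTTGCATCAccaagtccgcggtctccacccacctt
Aars, chr8:111033704-111033763, plus strand: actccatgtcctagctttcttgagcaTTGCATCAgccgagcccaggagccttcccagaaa
In Asns the match begins 23 bases before the gene start, and in the other 5 it begins 103 to 193 bases before it. Asns and Pycr1 carry the letters on the gene's strand and the other 4 carry their reverse complement. A match describes the letters of the window and is no evidence that a factor binds there.

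Transcripts of mitochondrial DNA moved the other way. Of its 13 mRNAs 12 fell, with a median of -1.67, and the share of reads from mitochondrial DNA was 0.845, 0.881 and 0.736% in cKO libraries, against 2.23, 1.86 and 2.27% in WT libraries. The groups did not overlap (exact permutation test, two-sided, p = 0.1, again the smallest possible). mt-Co1, the catalytic subunit of complex IV (mitochondrial chromosome, 5328 to 6872), had 50078, 51046 and 43912 normalised reads in cKO libraries, against 178609, 155173 and 181240.0 in WT libraries (log2 fold change -1.83, SE 0.09, limma adjusted p = 9.6e-08). mt-Cytb of complex III had 14329, 15638 and 13471 normalised reads in cKO libraries, against 49551, 39864 and 49164 in WT libraries, and mt-Nd5 of complex I had 11086, 11368 and 9593 normalised reads in cKO libraries, against 34905, 28523 and 37069 in WT libraries. Each WT library held more than 2 times the reads of each cKO library in these genes. mt-Nd6, the only mRNA of the other strand, fell as well (log2 fold change -1.75), though reads of the strands cannot be told apart. The largest falls were those of mt-Co2 (-2.52), mt-Co3 (-2.16), mt-Atp6 (-2.02) and mt-Atp8 (-2.56). cKO replicate 1 was the lowest library for mt-Co2, mt-Co3 and mt-Atp6, with 92.1, 132 and 165 normalised reads.

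The exceptions were mt-Nd3 and the ribosomal RNAs. mt-Nd3 had 252, 286 and 171 normalised reads in cKO libraries, against 147, 136 and 139.5 in WT libraries (log2 fold change 0.71, SE 0.17, limma adjusted p = 0.012), and this call was lost without cKO replicate 1 or cKO replicate 2. The large mitochondrial ribosomal RNA mt-Rnr2 had 13682, 14109 and 11525 normalised reads in cKO libraries, against 7583, 9039 and 10939 in WT libraries (log2 fold change 0.52, SE 0.12, limma adjusted p = 0.0079), and the small one, mt-Rnr1, rose by 0.54 (SE 0.12). The ribosomal genes lie first on the strand that also carries mt-Nd1, which fell by 1.35 on the log2 scale. Poly-A selection acts on the tails of these RNAs, and its part in the difference was not tested. Copies of mitochondrial DNA in the nuclear genome can take part of these reads.

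**Figure D3:**
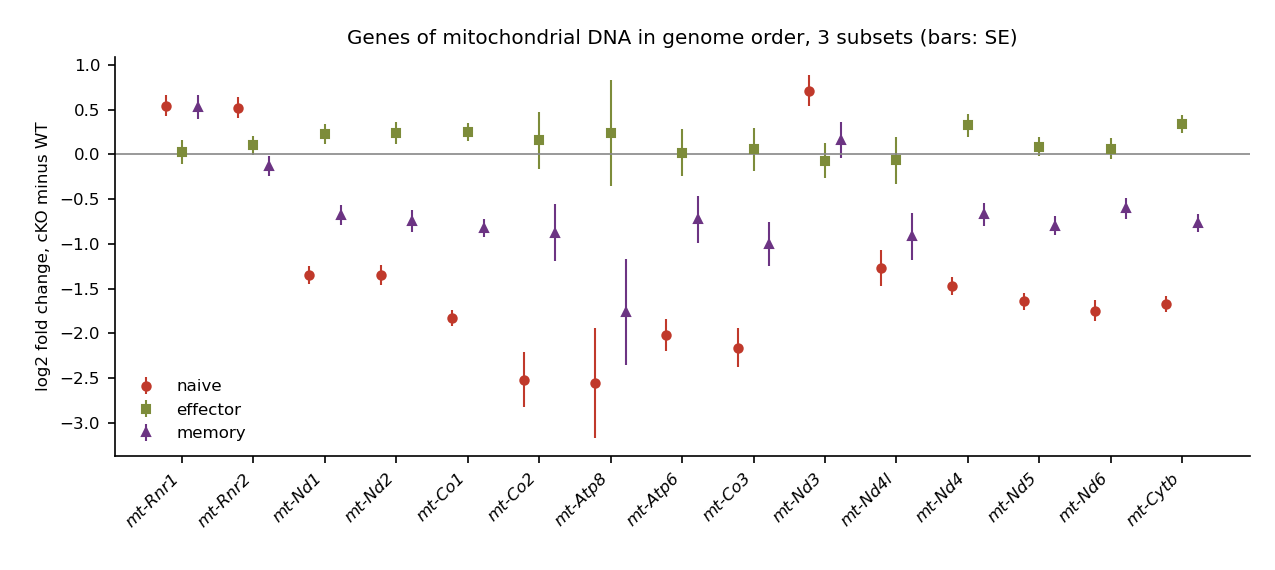
Log2 fold change (cKO minus WT, y axis, bars are SE) of the 15 genes of mitochondrial DNA tested, in genome order, for naive (circles), effector (squares) and memory cells (triangles). In naive cells 12 of the 13 mRNAs lie between -2.56 and -1.27, while mt-Rnr1, mt-Rnr2 and mt-Nd3 lie above 0.

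Nuclear genes that act on mitochondrial DNA were called no more often than the 25.0% of all genes, and rose about as often as the 13.0%. Of 36 tested 5 rose and 2 fell, or 7 and 0 when scaled to library totals, and the median of -0.02 turns to 0.10. The rises numbered 3 without cKO replicate 1 or 2, and the falls 5 without cKO replicate 3 and 1 without WT replicate 3 or cKO replicate 1 or 2. Polrmt, the mitochondrial RNA polymerase, had 675, 587 and 814 normalised reads in cKO libraries, against 764, 1010.3 and 819.8 in WT libraries, and Tfam, which packages the genome and starts transcription, had 1127, 1192 and 976 normalised reads in cKO libraries, against 1166, 1061 and 1189 in WT libraries. Both pairs of groups overlapped. Polg2, the accessory subunit of the replicative polymerase, rose by 0.54 (SE 0.09), and Lrpprc, which stabilises mitochondrial mRNAs, rose by 0.31 (SE 0.07).

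Falls among the nuclear subunits of the respiratory chain were small and lay mostly in complexes II to V. In complex I 6 of 34 fell and 0 rose (median -0.24), and in complexes II to V 15 of 41 fell and 1, Cox6a2, rose (median -0.24). The share in complex I lies above the 12.0% of all genes that fell, though closer to it than the share in complexes II to V. Both medians are -0.12 when scaled to library totals, which leaves 2 falls in complex I and 8 in complexes II to V. Uqcrh of complex III had 1236, 1289 and 1009 normalised reads in cKO libraries, against 2266, 1812 and 1996 in WT libraries (log2 fold change -0.78, SE 0.10, limma adjusted p = 0.00025), Cox7a2l, a factor of supercomplex assembly, had 4247, 3889 and 3996 normalised reads in cKO libraries, against 6680.1, 6527 and 6186 in WT libraries, and Ndufb7 of complex I fell (log2 fold change -0.47, SE 0.09). The core subunits Ndufs1 (-0.09), Sdhb (-0.13) and Atp5b (-0.12) were not called. Cox6a1, the isoform found in most tissues beside the risen Cox6a2, had 1041, 1002 and 907 normalised reads in cKO libraries, against 1166, 1096 and 1114 in WT libraries and missed the threshold (limma adjusted p = 0.078). The falls in complex I numbered 2 without WT replicate 1, 14 without WT replicate 2, 3 without WT replicate 3 and 2 without cKO replicate 3. Those in complexes II to V numbered 8, 23, 8 and 9 without the same libraries.

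Of the machinery that GRP75 works in, few matrix chaperones, proteases and iron-sulfur assembly genes were called. Among import genes 6 of 23 fell, against 12.0% of all genes tested. Among 22 other chaperones and proteases of the matrix 0 rose and 1 fell, with a median of -0.08 that turns to 0.03 when scaled to library totals. Scaling to library totals gave 2 rises and 0 falls. The 1 fall, that of Pmpca, a subunit of the peptidase that cleaves import signals, was lost without any single library but cKO replicate 3, and 2 members fell without cKO replicate 3. Hspd1, the matrix chaperonin HSP60, had 3215, 3352 and 2879 normalised reads in cKO libraries, against 3441, 3053 and 3398 in WT libraries. Lonp1, a matrix protease, had 1290.0, 1177 and 1352 normalised reads in cKO libraries, against 1275, 1467 and 1288 in WT libraries. Grpel1, the nucleotide exchange factor of GRP75, had 551, 574 and 546 normalised reads in cKO libraries, against 635, 625 and 641 in WT libraries and missed the threshold (limma adjusted p = 0.096), though its groups did not overlap. None of 13 iron-sulfur assembly genes was called, and 1 fell without cKO replicate 1 or 3, while 2 rose when scaled to library totals. In the import machinery 6 of 23 fell and 0 rose, with 3 falls without WT replicate 1, WT replicate 3 or cKO replicate 3, and a median of -0.04 that turns to 0.08 when scaled to library totals, with 2 rises and 3 falls. Dnajc15, a J-protein partner of the import motor, had 1155, 1246 and 939 normalised reads in cKO libraries, against 2076, 1827 and 1979.8 in WT libraries (log2 fold change -0.82, SE 0.10, limma adjusted p = 0.00012), and Tomm22, a receptor of the outer membrane, fell (log2 fold change -0.40, SE 0.08). Timm44, the anchor of GRP75 at the import channel, had 1143, 1065 and 1117 normalised reads in cKO libraries, against 1101, 1196 and 1112 in WT libraries, with overlapping groups.

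Around the contacts with the endoplasmic reticulum and the carbon pathways, changes were scattered. Of 16 genes of calcium transfer 1 rose and 3 fell, the falls dropping to 1 without cKO replicate 1 or cKO replicate 2. Scaled to library totals the split is the reverse, with 3 rises and 1 fall, and the median of -0.06 turns to 0.05. Mcub, a dominant-negative subunit of the mitochondrial calcium uniporter, had 52.5, 61.2 and 53.2 normalised reads in cKO libraries, against 25.3, 26.2 and 28.3 in WT libraries (log2 fold change 1.03, SE 0.22, limma adjusted p = 0.0056), while the channel Vdac1, which GRP75 tethers to the calcium release channel, had 1398, 1429.9 and 1468 normalised reads in cKO libraries, against 1525, 1514 and 1430.3 in WT libraries. Itpr3, one of those release channels, fell (log2 fold change -0.38, SE 0.09). In mitochondrial dynamics and mitophagy 1 of 21 rose and 3 fell, or 3 and 3 when scaled to library totals. Fis1 and Pink1, of fission and mitophagy, fell (log2 fold changes -0.44, SE 0.07 and -0.45, SE 0.08). In the tricarboxylic acid cycle 4 of 18 fell and 0 rose, with a median of -0.11 that turns to 0.01 when scaled to library totals, which leaves 2 falls, and Idh2 fell (log2 fold change -0.60, SE 0.08). Glycolysis was split, with 5 rises and 6 falls among 20, and the rises were 3 without cKO replicate 2. Library totals gave 5 rises and 3 falls. Aldoa, aldolase, had 2824, 2834 and 3320.1 normalised reads in cKO libraries, against 4306, 4896 and 4206 in WT libraries. Hk2, the inducible hexokinase, rose by 1.58 (SE 0.25) and Aldoa fell (log2 fold change -0.58, SE 0.08), with no overlap in either.

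Part of the genes that restrain nutrient use fell. Txnip, a brake on glucose uptake, had 7216, 7281 and 7274 normalised reads in cKO libraries, against 13386, 14356 and 13345 in WT libraries (log2 fold change -0.92, SE 0.06, limma adjusted p = 7.2e-07), and its relative Arrdc4 had 91.2, 91.4 and 97.4 normalised reads in cKO libraries, against 326, 301 and 297 in WT libraries (log2 fold change -1.71, SE 0.12, limma adjusted p = 1.6e-06). Every cKO library lay well below every WT library in both genes. Of the 15 genes of this list 5 fell and 1 rose, and the rise was lost without WT replicate 1, WT replicate 3, cKO replicate 1 or cKO replicate 2. Library totals gave 4 falls and 3 rises, and the median of -0.05 turns to 0.06. In the lipid lists the large rises were few beside Soat2: Scd2, a fatty acid desaturase, had 3262, 3341 and 3216 normalised reads in cKO libraries, against 1284, 1235 and 1289.7 in WT libraries (log2 fold change 1.37, SE 0.06, limma adjusted p = 4.2e-08), and Abca1, the cholesterol exporter, rose by 0.61 (SE 0.07). Of 28 sterol and fatty acid synthesis genes 3 rose, with 0 falls, or 4 falls without cKO replicate 3. In cholesterol esterification and efflux 3 of 10 rose (5 without WT replicate 2) and 2 fell (1 without WT replicate 1 or 3 or cKO replicate 1 or 3), or 4 and 1 when scaled to library totals.

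Iron and redox genes moved in both directions. Log2 fold changes ran from -0.32 to 1.59 among iron-handling genes and from -0.58 to 1.53 among antioxidant genes. Of 12 iron-handling genes 2 rose and 2 fell, with 1 rise without cKO replicate 2 and 0 falls when scaled to library totals, and Tfrc, the transferrin receptor, rose by 0.49 (SE 0.09). Of 22 antioxidant genes 2 rose and 5 fell. The rises numbered 1 without WT replicate 3 or cKO replicate 1 or 2, the falls 3 without WT replicate 1 or cKO replicate 2 and 2 without cKO replicate 1, and the median of -0.09 turns to 0.03 when scaled to library totals, which reverses the split to 5 rises and 2 falls. Gpx4, which reduces lipid peroxides, had 663, 664 and 751 normalised reads in cKO libraries, against 1033, 1042 and 1023 in WT libraries (log2 fold change -0.58, SE 0.08, limma adjusted p = 0.00023). In ribosome biogenesis Myc, the growth factor-induced regulator of that programme, rose by 0.61 (SE 0.10), the 1 rise among 25, beside 3 falls that numbered 0 without WT replicate 1 or cKO replicate 2. The falls numbered 1 without WT replicate 2 or cKO replicate 1, and the rises 2 without cKO replicate 3. Scaled to library totals the list gave 5 rises and 0 falls, and its median of -0.06 turns to 0.06.

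Most transcripts of cytosolic ribosomal proteins and part of those of cytosolic chaperones fell. Of 74 cytosolic ribosomal protein genes 55 fell and 2 rose, with a median of -0.38. That median is -0.26 when scaled to library totals, which leaves 30 falls. The falls numbered 30 without WT replicate 1 and 32 without WT replicate 3, and 1 rise was left without WT replicate 3. Rpl14 of the large subunit had 10839, 10609 and 9615 normalised reads in cKO libraries, against 15408, 14239 and 14761 in WT libraries, and Rps15 of the small subunit had 16247, 16544 and 14972 normalised reads in cKO libraries, against 23632, 20724 and 22207 in WT libraries. They fell (log2 fold changes -0.52, SE 0.07 and -0.48, SE 0.07), and many such genes have processed pseudogenes that can share reads. The mitochondrial ribosome gave 9 falls and 0 rises among 78, no larger a share than the 12.0% of all genes, with 4 falls without WT replicate 1 or cKO replicate 2, 1 rise without WT replicate 1, and a median of -0.09 that turns to 0.02 when scaled to library totals, with 1 rise and 3 falls.

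Of 20 cytosolic heat shock genes 8 fell and 0 rose, and 5 fell without WT replicate 1, cKO replicate 1 or cKO replicate 2. Library totals gave 5 falls and 1 rise. Hspa1b, an inducible HSP70, had 47.3, 54.4 and 68.2 normalised reads in cKO libraries, against 309, 379 and 230.0 in WT libraries (log2 fold change -2.40, SE 0.20, limma adjusted p = 7.1e-06), and its near-identical neighbour Hspa1a had 7.75, 5.83 and 15.1 normalised reads in cKO libraries, against 71.7, 88.8 and 51.2 in WT libraries. Reads of this pair can be exchanged between its members. Dnajb1, an HSP40 partner of these chaperones, fell (log2 fold change -0.51, SE 0.07), while Hsp90aa1 had 5190.3, 5113 and 4861 normalised reads in cKO libraries, against 5217, 5094 and 5323 in WT libraries. The response to unfolded proteins in the endoplasmic reticulum was split, with 6 rises and 6 falls among 23. Atf6, one of its sensors, had 231, 202 and 226 normalised reads in cKO libraries, against 82.2, 71.7 and 86.1 in WT libraries (log2 fold change 1.45, SE 0.14, limma adjusted p = 2.3e-05), Herpud1 rose by 1.09 (SE 0.09) and Dnajb9 by 0.78 (SE 0.09), while Xbp1 (-0.16) was not called and Calr and Manf, a chaperone and a secreted survival factor, fell (-0.49 and -0.45).

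Cell division genes were among the most uniform groups. Of 38 mitosis and spindle genes 36 rose and 0 fell, or 1 without WT replicate 2, with a median of 2.03. Mki67, the proliferation antigen Ki-67, had 1480.2, 1502 and 1712 normalised reads in cKO libraries, against 246, 199.8 and 217 in WT libraries (log2 fold change 2.82, SE 0.10, limma adjusted p = 9.5e-09). Top2a, the topoisomerase of dividing cells, had 1739, 1755 and 1815 normalised reads in cKO libraries, against 367, 306 and 399 in WT libraries, and Cdk1, the mitotic kinase, had 87.8, 101 and 115 normalised reads in cKO libraries, against 13.7, 22.2 and 13.1 in WT libraries. Every cKO library held over 3 times the reads of any WT library in these 3 genes. DNA replication genes moved less, with 15 rises and 1 fall among 35 and a median of 0.25. The fall was lost without WT replicate 1 or 2 or cKO replicate 1 or 2 and when scaled to library totals, which gives 20 rises. Rrm2, a subunit of ribonucleotide reductase, rose by 1.86 (SE 0.17), whereas Mcm2 of the replicative helicase had 1287, 1255 and 1504 normalised reads in cKO libraries, against 1162, 1404 and 1200.3 in WT libraries and Pcna, the sliding clamp, had 2102, 2041 and 1775 normalised reads in cKO libraries, against 1826, 1657 and 1811 in WT libraries. Neither Mcm2 nor Pcna was called, and both pairs of groups overlapped.

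**Figure D4:**
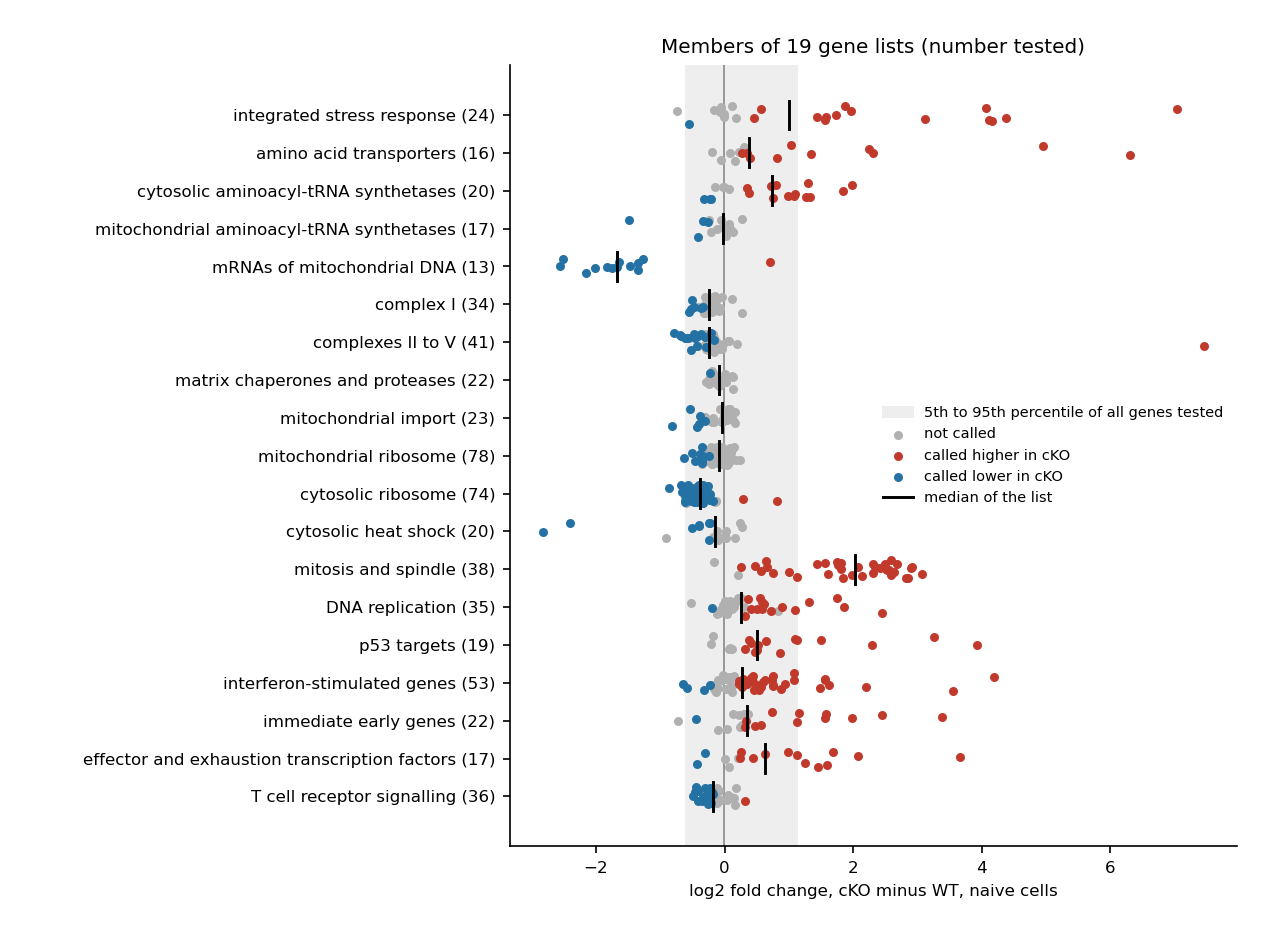
Log2 fold change (cKO minus WT, x axis) of each tested member of 19 gene lists in naive cells, with called members in red or blue, uncalled ones in grey, the list median as a black bar and the 5th to 95th percentile of all genes tested as a grey band. Mitosis and spindle genes have a median of 2.03 and mRNAs of mitochondrial DNA one of -1.67. The medians of matrix chaperones and proteases and of the import machinery are -0.08 and -0.04.

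Promoters of both cell cycle lists were read as well. The cell cycle genes homology region, a short element through which late cell cycle genes are kept off in resting cells, was searched as TTTGAA on either strand and was found in 14.3% of all 9009 windows. Among mitosis and spindle genes 24 of 32 windows held it, and among DNA replication genes 4 of 28. CCAAT boxes were found in 43.0% of all windows, in 22 of 32 of the mitosis and spindle list and in 18 of 28 of the DNA replication list. The windows of the 4 mitosis genes with the largest fold change and a whole match before the gene start are shown in the same way, with TTTGAA or its reverse complement in capitals.
Espl1, chr15:102296233-102296292, plus strand: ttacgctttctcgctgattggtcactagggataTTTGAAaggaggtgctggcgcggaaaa
Mki67, chr7:135716445-135716504, minus strand: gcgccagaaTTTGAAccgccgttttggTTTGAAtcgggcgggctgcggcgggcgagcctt
Cdk1, chr10:69352913-69352972, minus strand: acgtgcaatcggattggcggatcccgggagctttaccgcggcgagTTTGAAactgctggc
Kif11, chr19:37376322-37376381, plus strand: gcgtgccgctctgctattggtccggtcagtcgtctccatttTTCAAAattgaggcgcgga
The match begins 27, 15 and 19 bases before the gene start in Espl1, Cdk1 and Kif11. In Mki67 the second of the 2 matches shown, which is nearer the gene start, begins 98 bases before it.

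G1 regulators rose on both the driving and the braking side. Of 24 tested 13 rose and 0 fell (median 0.38). Cdk6, a G1 kinase, had 2103, 2008 and 1993 normalised reads in cKO libraries, against 928, 831 and 1059.7 in WT libraries (log2 fold change 1.12, SE 0.09, limma adjusted p = 4.1e-06), and E2f2 rose by 1.10 (SE 0.11). Cdkn1a, the inhibitor p21, had 74.9, 87.5 and 62.2 normalised reads in cKO libraries, against 1.05, 3.03 and 0 in WT libraries (log2 fold change 5.22, SE 0.51, limma adjusted p = 2.3e-05), so that it was nearly absent from WT, and the inhibitor Cdkn2c rose by 1.48 (SE 0.17). Cdkn1b, the inhibitor p27 that marks resting T cells, had 4234, 4487 and 4329.8 normalised reads in cKO libraries, against 4330.1, 4267 and 4353 in WT libraries, with overlapping groups. Genes that p53 activates rose in 14 of 19 cases and fell in 0, with a median of 0.50. Phlda3, an inhibitor of AKT, had 69.7, 79.7 and 73.3 normalised reads in cKO libraries, against 8.43, 5.05 and 1.09 in WT libraries (log2 fold change 3.93, SE 0.48, limma adjusted p = 0.00014), and Plk2, a stress-response kinase, had 202, 256 and 254 normalised reads in cKO libraries, against 29.5, 31.3 and 14.2 in WT libraries. Mdm2, the p53 ubiquitin ligase, had 2063, 2131 and 2138 normalised reads in cKO libraries, against 2028, 1832 and 2016 in WT libraries and was not called (log2 fold change 0.11). In the BCL2 family 6 of 12 rose and 0 fell (1 fall without WT replicate 2 or by DESeq2), on both sides of the balance: anti-apoptotic Bcl2 had 9301, 9244 and 8330.3 normalised reads in cKO libraries, against 4592, 4345 and 4652 in WT libraries and pro-apoptotic Bcl2l11, or BIM, had 2896, 2945 and 3045 normalised reads in cKO libraries, against 1556, 1404 and 1533 in WT libraries. Both rose by 0.98 on the log2 scale.

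Interferon-stimulated genes rose in most effectors. Of 53 tested 30 rose and 4 fell, with a median of 0.27, and the effectors gave 26 of the rises among 41. Oasl2, an oligoadenylate synthetase-like antiviral protein (ENSMUSG00000029561, chromosome 5, 115034997 to 115050295), had 477, 452 and 512 normalised reads in cKO libraries, against 25.3, 34.3 and 18.5 in WT libraries (log2 fold change 4.19, SE 0.20, limma adjusted p = 8.5e-08). Ifi44 had 598, 604 and 493 normalised reads in cKO libraries, against 44.3, 41.4 and 55.6 in WT libraries, and Mx1, an antiviral GTPase, had 1476, 1561 and 1497 normalised reads in cKO libraries, against 483, 511 and 468 in WT libraries. No cKO library overlapped WT in these genes. Rsad2, or viperin, had 843, 943 and 796 normalised reads in cKO libraries, against 197, 168 and 195 in WT libraries, and Ifit3 rose by 1.08 (SE 0.07). Among the inducers Irf7 rose by 0.73 (SE 0.07) and the double-stranded RNA sensor Ifih1 by 0.57 (SE 0.07), while the DNA sensor Cgas had 188, 201 and 157 normalised reads in cKO libraries, against 241, 160.5 and 192 in WT libraries. Cgas overlapped between the groups, and Sting1, the adaptor below Cgas, fell (-0.65).

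The interferon-stimulated response element, bound by STAT and IRF factors, was searched in the same windows as GAAA, any 2 bases and GAAA again, on either strand, where overlapping matches count. It was found in 3.79% of all windows, in 4.98% of those of risen genes and in 5.11% of those of fallen genes. In the list 19 of 37 windows held it, 12 of 20 among its risen members. The windows of 4 risen members are shown with the matches in capitals. They are the ones with the largest fold change and a whole match before the start, leaving out Ifit3b, whose window has the same letters as that of Ifit3 and whose reads it can share.
Rsad2, chr12:26456538-26456597, minus strand: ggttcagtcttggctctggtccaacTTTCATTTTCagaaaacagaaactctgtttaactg
Oas1a, chr5:120907526-120907585, minus strand: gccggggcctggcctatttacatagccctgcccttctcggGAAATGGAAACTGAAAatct
Ifit3, chr19:34583382-34583441, plus strand: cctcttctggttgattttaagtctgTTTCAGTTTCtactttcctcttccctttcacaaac
Ifit1, chr19:34640779-34640838, plus strand: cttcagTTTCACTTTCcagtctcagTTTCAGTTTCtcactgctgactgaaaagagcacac
Oas1a holds 2 overlapping matches and Ifit1 holds 2 separate ones in the stretch shown.

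Part of the activation-type genes rose. Of 22 immediate early genes 12 rose and 1 fell, with a median of 0.35. Fosb, an AP-1 subunit, had 1171, 1182 and 1422 normalised reads in cKO libraries, against 109.6, 133 and 114 in WT libraries (log2 fold change 3.39, SE 0.11, limma adjusted p = 7.1e-09), and Nr4a1, the nuclear receptor induced by T cell receptor signals, had 4551, 4569.8 and 4901 normalised reads in cKO libraries, against 1123, 1300.0 and 1128 in WT libraries. The groups stood far apart in both. Fos rose by 1.57 (SE 0.08) and the early activation antigen Cd69 by 1.14 (SE 0.07). Jun had 5927, 5763 and 7161 normalised reads in cKO libraries, against 4763, 6663 and 4795 in WT libraries and Junb had 11353, 11008 and 14478 normalised reads in cKO libraries, against 9214, 13493 and 8755 in WT libraries. In both, WT replicate 2 lay among the cKO libraries and neither was called. The cyclic AMP response element TGACGTCA stood in 1 of 18 windows of this list, beside 3.75% of all windows. Feedback inhibitors of MAP kinase signalling rose in 7 of 9 cases. Dusp5, a nuclear ERK phosphatase, had 1272, 1291 and 1539.6 normalised reads in cKO libraries, against 313, 359 and 265 in WT libraries, Dusp4 rose by 2.53 (SE 0.18) and Spry2, a receptor kinase inhibitor, by 4.21 (SE 0.45).

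Among factors of effector and exhausted T cells 12 of 17 rose and 2 fell, with a median of 0.63. Bhlhe40 had 510.3, 496 and 580.1 normalised reads in cKO libraries, against 42.2, 47.4 and 33.8 in WT libraries (log2 fold change 3.66, SE 0.15, limma adjusted p = 3e-08), Irf4 had 886, 899 and 921 normalised reads in cKO libraries, against 187, 222 and 233 in WT libraries, and Tbx21, which encodes T-bet, had 140.3, 175 and 214 normalised reads in cKO libraries, against 62.2, 59.5 and 67.6 in WT libraries. The cKO libraries were above WT in each. The 2 falls were Stat4 (-0.42) and Eomes (-0.30), and that of Eomes was lost when scaled to library totals and without any single library but WT replicate 3. Of 13 factors of the naive state 2 rose and 2 fell, with a median of -0.08 that turns to 0.04 when scaled to library totals, which gives 4 rises and 2 falls. Tcf7 had 20352, 19801 and 22053 normalised reads in cKO libraries, against 25481, 27205 and 24999 in WT libraries and Lef1 had 7347, 7429.6 and 8421 normalised reads in cKO libraries, against 9946, 10499.7 and 9609 in WT libraries. They fell (log2 fold changes -0.32, SE 0.07 and -0.38, SE 0.07), while Bach2 rose by 0.38 (SE 0.06) and Foxo1 (-0.13) was not called.

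Surface receptors moved in both directions. Of 21 homing receptors 9 rose and 8 fell, with 5 falls without WT replicate 1 or 3 or without any single cKO library and 4 when scaled to library totals. Ccr7, which directs naive cells to lymph nodes, rose by 0.44 (SE 0.08). Itgae, the CD103 integrin, had 6553, 6232 and 6455 normalised reads in cKO libraries, against 3934, 4229 and 3892 in WT libraries, and Cxcr6, a chemokine receptor, had 461, 437 and 400.5 normalised reads in cKO libraries, against 1099.7, 1064 and 1116 in WT libraries (log2 fold change -1.34, SE 0.08, limma adjusted p = 4.8e-07). Every cKO library lay far below every WT library for Cxcr6. Inhibitory receptors rose in 8 of 15 cases and fell in 2, with 5 rises without cKO replicate 2. Tigit had 118, 102 and 136 normalised reads in cKO libraries, against 12.7, 13.1 and 19.6 in WT libraries (log2 fold change 2.91, SE 0.25, limma adjusted p = 7.7e-06), and Ctla4 rose by 0.68 (SE 0.09). Pdcd1, which encodes PD-1, had 49.1, 84.6 and 49.2 normalised reads in cKO libraries, against 28.5, 28.3 and 31.6 in WT libraries (log2 fold change 0.98), a call lost without cKO replicate 2. Among costimulatory receptors 6 of 15 rose and 4 fell, with 3 rises without cKO replicate 1 or cKO replicate 2. Tnfrsf9, or 4-1BB, rose by 0.89 (SE 0.10) and Cd27 fell (log2 fold change -0.45, SE 0.07).

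Cytokine, cytotoxic and cytokine receptor genes held members called in either direction. Ccl5, a chemokine of antigen-experienced T cells, had 461, 439 and 433 normalised reads in cKO libraries, against 56.9, 63.6 and 57.8 in WT libraries (log2 fold change 2.88, SE 0.12, limma adjusted p = 3.1e-08), and Cxcl10, an interferon-induced chemokine, had 119, 166 and 118 normalised reads in cKO libraries, against 14.8, 5.05 and 7.63 in WT libraries. Ifng, the gene of interferon gamma, had 22.4, 45.7 and 25.1 normalised reads in cKO libraries, against 2.11, 4.04 and 4.36 in WT libraries. All 3 rose, among 7 rises and 2 falls in 13 cytokine genes, and Tnf had 112, 108 and 113 normalised reads in cKO libraries, against 125, 122 and 128 in WT libraries. Of 12 cytotoxic genes 4 rose and 4 fell, with 2 falls without WT replicate 3 or cKO replicate 1. Scaled to library totals 5 rose and 1 fell, and the median of -0.11 turns to 0.01. Gzmb, or granzyme B, had 78.3, 84.6 and 89.3 normalised reads in cKO libraries, against 7.38, 16.1 and 26.2 in WT libraries, while Prf1, or perforin, had 454, 406 and 443 normalised reads in cKO libraries, against 1092, 1202 and 1081 in WT libraries (log2 fold change -1.37, SE 0.08, limma adjusted p = 4.6e-07). Granzyme B and perforin thus lay on opposite sides. Among 20 interleukin and interferon receptors 7 rose and 6 fell, the falls numbering 3 without cKO replicate 1 or 2, and library totals gave 9 rises and 3 falls. Il2ra, the inducible chain of the IL-2 receptor, had 92.9, 99.2 and 110.4 normalised reads in cKO libraries, against 16.9, 19.2 and 30.5 in WT libraries, Il7r, the survival receptor of naive cells, had 9951, 9940.5 and 9497 normalised reads in cKO libraries, against 13896, 13285 and 13870.3 in WT libraries, and Il18r1 had 725, 697 and 614 normalised reads in cKO libraries, against 1275, 1361 and 1238 in WT libraries. Il2ra rose by 2.18 (SE 0.25), whereas Il7r and Il18r1 fell (log2 fold changes -0.48, SE 0.06 and -0.93, SE 0.08). Cish, a feedback inhibitor of cytokine signals, rose by 1.25 (SE 0.11), 1 of 2 rises among 7 SOCS genes. The other, Socs1, was lost without WT replicate 1 or 3 or cKO replicate 2 or 3.

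Part of the T cell receptor signalling genes fell, by small amounts. Of 36 tested 16 fell and 1 rose, with a median of -0.18, or -0.07 when scaled to library totals, which gives 9 falls and 6 rises. The falls were 10 without WT replicate 1 or cKO replicate 2, and the rises were 2 without WT replicate 2 and 0 without WT replicate 1 or cKO replicate 1 or 2. Cd8b1, the beta chain of CD8, had 13437, 13174 and 13396 normalised reads in cKO libraries, against 18993, 18034 and 17938 in WT libraries (log2 fold change -0.46, SE 0.06, limma adjusted p = 0.00017). Thy1 and Dgka, the kinase that removes the second messenger diacylglycerol, fell (log2 fold changes -0.48, SE 0.07 and -0.43, SE 0.06), while Zap70 (-0.17) was not called. Of 8 GIMAP genes, guanosine nucleotide-binding proteins of lymphocyte survival, 3 fell and 0 rose, or 2 and 2 when scaled to library totals. Of 9 LY6 and NKG2 surface genes 4 rose and 2 fell. Klra6 and Klra7, Ly49 receptors with near-identical relatives, had 63.7, 80.7 and 60.2 and 68.8, 67.1 and 63.2 normalised reads in cKO libraries, against 1.05, 2.02 and 0 and 2.11, 1.01 and 4.36 in WT libraries. Klrd1, the CD94 partner of NKG2 receptors, fell (log2 fold change -0.90, SE 0.10).

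Markers of other cells moved with the genotype. Summed over each list in CPM, CD8 T cell markers were at 5832 to 6094 in cKO and 6619.5 to 6831 in WT libraries, with 6 of 9 falling, and CD4 T cell markers at 184 to 199 in cKO and 111 to 128 in WT. Markers of gamma-delta or innate-like T cells were at 51.4 to 60.1 in cKO and 10.2 to 11.8 in WT. Of their 10 markers 5 were tested and 4 rose. Trdc, the delta chain constant gene, had 452, 387 and 386 normalised reads in cKO libraries, against 114, 123 and 160.3 in WT libraries (log2 fold change 1.63, SE 0.14, limma adjusted p = 9.5e-06), and Trgc2 had 217, 236 and 188 normalised reads in cKO libraries, against 17.9, 15.1 and 5.45 in WT libraries. The defining factors Sox13 and Zbtb16 were at 14 reads or fewer in every library. B cell markers were at 360 to 395 in cKO and 446 to 482 in WT, where Cd79b fell (log2 fold change -0.81). Of 9 tested B cell markers 5 rose, or 3 without cKO replicate 1 or 2, and 2 fell. Class II MHC genes were at 84.2 to 90.9 in cKO and 57.9 to 60.7 in WT, and NK markers at 35.5 to 37.8 in cKO and 34.6 to 41.3 in WT. Macrophage or dendritic markers were at 8.72 to 9.58 in cKO and 4.60 to 5.59 in WT, neutrophil markers at 0.388 to 0.942 in cKO and 0.387 to 1.07 in WT, and thymocyte markers at 60.2 to 66.7 in cKO and 56.4 to 60.6 in WT. Erythroid markers were at 0.0646 to 0.388 in cKO and at 0, 4.36 and 10.3 in WT libraries. The part of other cells in the gene groups above was not tested.

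Zbtb7b, which encodes ThPOK, the factor of the CD4 lineage, had 120.5, 83.6 and 98.4 normalised reads in cKO libraries, against 5.27, 13.1 and 6.54 in WT libraries (log2 fold change 3.53, SE 0.33, limma adjusted p = 1.9e-05). Its groups stood far apart. Cd4 rose less (log2 fold change 0.95, SE 0.28, limma adjusted p = 0.031), a call lost without WT replicate 1, WT replicate 3, cKO replicate 1 or cKO replicate 3. The immature-thymocyte antigen Cd24a had 165, 148 and 119 normalised reads in cKO libraries, against 29.5, 20.2 and 14.2 in WT libraries, and Dntt, active in thymocytes, had 108, 83.6 and 93.3 normalised reads in cKO libraries, against 140.2, 150.4 and 126 in WT libraries.

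The genotype effect of naive cells was then set against that of the cultured cells in 1 limma model of all 18 libraries, with each effect taken within its own subset. Since the split in sex-linked genes was that of the naive libraries, a difference between subsets in the genotype effect cannot be told apart from one of sex. Of 15209 genes 2819 (18.5%) had an effect that differed from effector cells, 1473 upward (9.69%) and 1346 downward (8.85%). From memory cells 2581 (17.0%) differed, 1366 upward (8.98%) and 1215 downward (7.99%). Scaled to library totals, the splits were 2251 upward and 740 downward from effector cells, and 1646 upward and 1020 downward from memory cells. The split from memory cells turned round under TMM scaling, another normalisation, with 1134 upward and 1508 downward, and under edgeR, with 1217 upward and 1452 downward. It also did so without cKO replicate 3, with 1351 upward and 1371 downward. Of the 3333 genes called in naive cells that this model holds, 1905 differed from effector and 1423 from memory cells, and 1890 and 1368 of these differed in the direction of their naive change.

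In the stress response 15 of 24 members differed from effector cells, 13 of them upward, and 9 from memory cells, 7 upward. The list had a median effect of 1.00 in naive cells, 0.10 in effector cells and 0.82 in memory cells. Asns, at 5.72 in naive cells, was at 0.19 in effector and 1.80 in memory cells (limma adjusted p of the differences 3.7e-10 and 2e-07). Mitosis genes differed in nearly every case, 37 of 38 from effector and 35 of 38 from memory cells, all upward, with median effects of 2.03 in naive cells, -0.40 in effector cells and 0.27 in memory cells. For the mRNAs of mitochondrial DNA the medians were -1.67, 0.16 and -0.77 in that order, and 12 and 10 of 13 differed, all downward. For interferon-stimulated genes they were 0.27, 0.11 and 0.03, and 26 and 27 of 53 differed, 19 and 23 of them upward. Cytosolic ribosomal genes differed from effector cells in 33 of 74 cases and from memory cells in 4.

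For none of the 5 tested gamma-delta or innate-like markers did the limma test of the difference pass, and Trgc2 was at 4.09 in naive cells, 3.11 in effector cells and 3.77 in memory cells. Some effects had opposite signs. Arrdc4 was at -1.71 in naive and 2.34 in effector cells, App, the amyloid precursor protein, at -1.24 in naive and 1.73 in effector cells, and Klrk1, the receptor NKG2D, at -0.63 in naive and 1.74 in memory cells, each difference called.

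**Figure D5:**
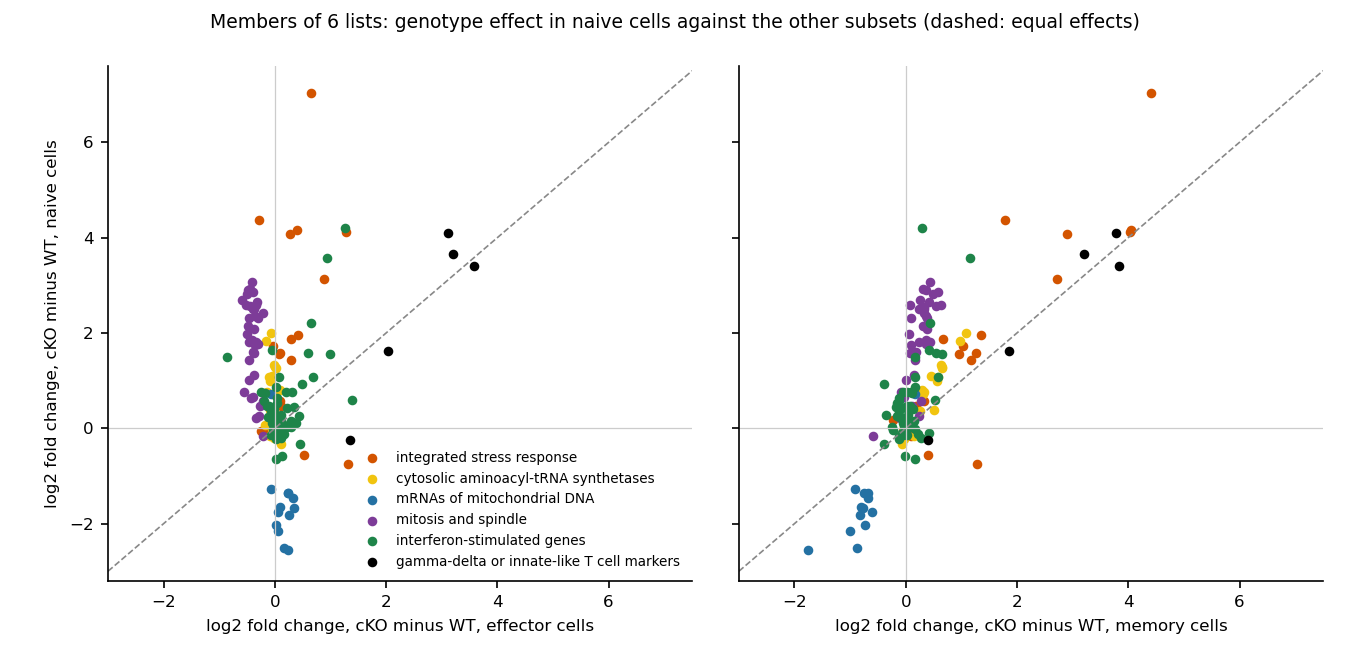
Log2 fold change (cKO minus WT) of the members of 6 gene lists in naive cells (y axis) against effector cells (left) and memory cells (right, x axes), with a dashed line at equal effects. Mitosis genes lie between -0.60 and -0.21 in effector cells with naive values up to 3.07, while gamma-delta markers lie near the dashed line in both panels.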

How the data were processed

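Naive CD8+ T cells from 3 GRP75 cKO and 3 WT samples were compared, with 12 effector and memory libraries for the differences between subsets. Per the submitters' processing notes, the tools were DESeq2 1.42.0, featureCounts 2.0.6, HISAT2 2.2.1 and fastp, on GRCm39. Their order and settings, the annotation and the strand setting are not given in the sources used here. The labels' protocols name no step that marks strand, so a gene and its antisense partner cannot be told apart. The authors deposited, per gene and library, a signal value that equals a read count divided by 1 size factor (normalised reads). Beside these signal values the authors deposited a log2 fold change of WT over cKO with its p-value and adjusted p-value, which were not used. Dividing by the smallest positive value of a library gave whole reads for all values, within 3.39e-06 of a whole number (tolerance 1e-05). For WT replicate 2 and cKO replicate 3 the size factor is close to 1, so these recovered reads are less firmly established.

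Main tests used limma 3.58.1 in R 4.3.3 with an intensity trend on log2(normalised reads + 1), a pseudocount of 1, on genes that reached 10 normalised reads in 3 or more libraries, without X and Y (735 of 23757 genes). P-values are two-sided and adjusted over all genes tested. Single values per library were compared by exact permutation. Alternatives were a pseudocount of 5, no filter, a filter of 50, TMM and library-total scaling, a replicate block, leaving out each library, edgeR 4.0.16 and DESeq2 1.42.0 on recovered reads, and keeping X and Y. The 59 gene lists hold 1188 entries: 1111 were tested, 72 fell below the filter and 5 matched no gene. Genes named are Hspa9, the 10 largest changes per direction (called, protein-coding, a mean of at least 50 normalised reads, groups not overlapping), core members of each list, up to 4 called members with the smallest adjusted p per list, and, under the same conditions as the 10 largest changes, the 5 largest differences per direction between subsets. Sting1, Calr, Manf, Stat4, Ddit4, mt-Atp8, Nupr1, Atf3, Oas1a and Ifit3b fall outside this rule and were chosen after their values were seen. The comparison, its lists and its named genes were chosen with earlier results of these data known, so no list is independent evidence of its direction. Promoter windows are from RefSeq, on GRCm38.p6, whose coordinates differ from those of the tables. Intervals and bounds cover counting error only.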

Additional observations from a re-analysis of the deposited data

Results flagged for a closer look

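The genotype effect (cKO minus WT, log2 scale) differed between naive and effector cells for Hspa9, by 0.53 (SE 0.08, limma adjusted p = 7.3e-05). Among protein-coding genes with a mean of at least 50 normalised reads in naive libraries and no overlap there, the largest differences upward between these subsets were those of Cox6a2 (6.83), Trib3 (6.39), Soat2 (5.86), Asns (5.53) and Vegfa (5.51), and the largest downward were those of Arrdc4 (-4.05), Pcsk1 (-3.21), App (-2.97), Ramp3 (-2.71) and mt-Co2 (-2.67). All 10 passed the limma interaction test, with adjusted p-values up to 0.0027. Pcsk1 was at -3.08 in naive and 0.13 in effector cells, and Ramp3, a partner of G-protein-coupled receptors, at -1.26 and 1.45. Within memory cells the Hspa9 effect was 0.48 (SE 0.06, limma adjusted p = 2.6e-06). Its difference from the naive effect was not called (limma adjusted p = 0.092). Memory effects were 5.50 for Cox6a2, 4.41 for Trib3, 3.16 for Soat2, 1.80 for Asns and 3.59 for Vegfa. These were smaller than the naive effects, with called differences. Pcsk1 was at -3.51 in memory cells, a difference from naive cells not called, and mt-Co2 at -0.87, itself not called.

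Among the same kind of genes, the effect differed most upward between naive and memory cells for Asns (3.92), Oasl2 (3.90), Fosb (3.52), Scart2 (3.46) and Vegfa (3.35), and most downward for Naaa (-3.04), Hspa1b (-2.70), Naip2 (-2.43), Klrk1 (-2.37) and Grn (-2.27), all called. Fosb was at 3.39 in naive and -0.13 in memory cells. Grn, progranulin, was not called within naive cells (-0.19) and was at 2.08 in memory cells, and Naaa, a lysosomal amidase, was at -0.60 and 2.44. The naive call of Naaa was lost without WT replicate 1, cKO replicate 1 or cKO replicate 2.

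Reads of the 4 Y-linked genes Ddx3y, Eif2s3y, Kdm5d and Uty, which no test here uses, numbered 7614, 6833 and 5885 in the naive libraries labelled cKO, against 0 in each naive WT library.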

How the results depend on the processing

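The number of genes called in naive cells (3356) stayed within 1.5 times of itself under the other pseudocount, filters and scalings, edgeR, DESeq2, the replicate block and with X and Y kept. Without 1 library it ranged from 2192 to 3189, rises from 1175 to 1671 and falls from 1002 to 1561. Scaling to library totals gave 2784 rises and 794 falls in naive cells, against 1744 and 1612 as reported, and 2251 and 740 for naive minus effector, against 1473 and 1346. It shared 2538 calls with the reported ones, all in the same direction, and edgeR shared 3267. Without 1 naive library the differences numbered 2333 to 2740 for effector and 1932 to 2722 for memory cells, the Hspa9 effect 0.65 to 0.72 on the log2 scale and the difference in mitochondrial reads -1.43 to -1.22 percentage points. The naming rule above selects 268 called genes besides Hspa9, not all of which are printed here. Of these, 215 stayed past the threshold in every alternative that tests them, and none reversed. Of 65 uncalled ones 21 passed it in at least 1 alternative. Genes named outside that rule are not in these counts.

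Deviations of same-numbered libraries from their group means correlated at 0.02, -0.14 and -0.13, and no library correlated best with its own number. The largest correlation was that of cKO replicate 3 with WT replicate 2 (0.20). Deviations from a mean of 3 libraries depend on one another, so these values cannot exclude a pairing by replicate number. The replicate block gave 2410 calls in naive cells, 2086 for naive minus effector and 1780 for naive minus memory. Depth limits the genes near 10 reads, where WT groups at 0 allow a bound only. The causes of these dependencies were not tested.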
